A study of Mus musculus with 5 samples.

Results

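Matrix metalloproteinases (MMPs) are the proteases described here, in cells of mouse hindlimb muscle before and after injury. The genes were Mmp2, Mmp3, Mmp9, Mmp13, Mmp14, Mmp19 and Mmp23, 7 of the 28001 features in the gene table and 7 of 23 features with an Mmp family symbol. Their counts were read in every library and divided among tenocytes, mural cells and all remaining cells. C57BL/6J mice of the genotype Hic1CreERT2/CreERT2;Rosa26LSLtdTomato/+ received 2.5 mg of tamoxifen in 100 uL of sunflower oil on each of 5 days at 8 weeks of age, with 10 days of washout. Tamoxifen lets the recombinase made from the Hic1 locus switch on the red protein tdTomato, so that the sorted cells had expressed Hic1 or descended from such cells. All 5 groups share this genotype and tamoxifen course, with no control that lacks either. The groups were quiescent muscle and muscle at days 1, 2, 4 and 14 after notexin, a snake venom phospholipase that destroys muscle fibres. Each group was 1 library of single cells, and the number of animals behind a library is not stated in the sources used here.

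MMPs are zinc-dependent endopeptidases that cut collagens, proteoglycans and other matrix and surface proteins. Most are secreted as inactive proenzymes, are opened by other proteases and are blocked by the TIMP inhibitors. After muscle injury they take part in clearing damaged matrix, in the passage of cells through it and in the release of growth factors. Mmp2 and Mmp9 are the gelatinases, Mmp3 is stromelysin 1, Mmp13 is an interstitial collagenase and Mmp14 is a membrane-type enzyme that activates the Mmp2 proenzyme at the cell surface. Mmp19 is a secreted stromal enzyme, and Mmp23 is membrane-anchored and lacks the hemopexin domain of the other members.

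Mmp3 and Mmp13, whose UMIs lay in few cells at their peaks (below), lie on chromosome 9 (Mmp3 at chr9:7445822-7455975 and Mmp13 at chr9:7272514-7283331, both on the plus strand of GRCm38). Their promoters are shown because both carry the letters of an AP-1 element close to the start, and Mmp14, which no subset of cells held more of by the call rule used below, is shown beside them. Each line gives the 120 bases before the transcript start, 5′ to 3′, from RefSeq on GRCm38.p6, at chr9:7445702-7445821 for Mmp3, chr9:7272394-7272513 for Mmp13 and chr14:54431478-54431597 for Mmp14, all on the plus strand. Capitals mark the AP-1 match, searched as TGAGTCA on both strands.
Mmp3: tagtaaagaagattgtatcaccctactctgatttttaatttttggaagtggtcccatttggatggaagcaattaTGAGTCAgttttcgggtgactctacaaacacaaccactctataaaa
Mmp13: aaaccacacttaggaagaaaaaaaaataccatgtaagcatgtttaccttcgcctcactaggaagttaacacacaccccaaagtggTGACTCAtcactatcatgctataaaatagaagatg
Mmp14: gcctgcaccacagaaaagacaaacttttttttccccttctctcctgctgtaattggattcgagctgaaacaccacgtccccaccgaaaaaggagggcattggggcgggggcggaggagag
The match lay 46 to 40 bases before the start of Mmp3 and 35 to 29 bases before that of Mmp13. No match was present in the 250 bases before the starts of Mmp14 or Mmp23. In the same window 4.46% of 32851 promoters held this motif, and in the 120-base window 2.30% did. The letters TATAAA were also present before the starts of Mmp3 and Mmp13, at 7 to 2 and 16 to 11 bases, against 6.34% of promoters in the 120-base window. The Mmp13 promoter also held the Runx letters AACCACA (119 to 113 bases, present in 2.11% of 120-base windows). Promoters were matched for 4 of the 7 members. These are matches of letters, and binding was not measured.

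The 5 libraries held 2170 barcodes (quiescent), 4820 (day 1), 2556 (day 2), 4140 (day 4) and 3527 (day 14), of which 17085 of 17213 were kept. Tenocytes were cells with at least 5 unique molecular identifiers (UMIs, each 1 captured transcript) of Tnmd, Fmod, Kera and Chad, and mural cells those with at least 5 of Rgs5, Kcnj8, Abcc9 and Higd1b. Remaining cells met neither limit, and 6 cells that met both were left out. Remaining cells, tenocytes and mural cells numbered 1900, 126 and 112 before injury. On days 1, 2, 4 and 14 they numbered 4536, 183 and 97, then 2407, 99 and 42, then 3810, 182 and 114, and last 2424, 804 and 243. A class is a range of counts rather than a type, but few cells lay at a limit: 4 to 21 tenocytes and 5 to 30 remaining cells per library had 4 or 5 tendon UMIs. All 8 tenocyte markers were detected in the tenocyte class of every library and all 8 mural markers in the mural class. This does not separate the classes, because the genes that define each class are among its 8 markers. Remaining cells also had all 8 markers of both lists above 0 in every library. Remaining cells had a median of 181 to 320 UMIs of 7 progenitor markers, tenocytes 111 to 212.5 and mural cells 2 to 22. tdTomato was found in 95.3% to 100% of cells in every class and library. The 10 immune markers together were at 5.62 to 14.6 CPM in remaining cells, highest at day 4. There 9 of the 10 were above 0, and 1.23% of cells held at least 2 UMIs of them. Ptprc, a marker of white blood cells, was at 0.166 CPM there, and S100a9 was the only marker at 0. Most of the day 4 level thus came from other markers of the list, whose single levels are not reported here. The levels of Ptprc and S100a9 alone do not show how few or many immune cells were present. Pairs of libraries shared 8 to 26 barcodes.

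Levels are CPM, in which the UMIs of a gene summed over a class in 1 library are divided by all UMIs of that class and scaled so that all genes sum to 1e6. Values in parentheses are 95% intervals that cover counting error only, since there were no replicates and no test or p-value was possible. A member was called higher or lower when its CPM differed at least 2-fold and the higher library reached 20 CPM. Shares of genes called are over genes that reached 20 CPM on either side. Counts of members and list genes are over all of them. Against quiescent, 5, 5, 6 and 5 members reached 20 CPM in remaining cells on days 1, 2, 4 and 14. In tenocytes 4, 6, 7 and 5 did, and in mural cells 4, 5, 6 and 3. The comparisons with quiescent share that library and are not independent of each other. Median depth per remaining cell was 3883 UMIs before injury and 8788, 11165, 7072 and 4938 UMIs on days 1, 2, 4 and 14. The day 2 and day 4 libraries stood apart together for some genes: with 5 CPM added, both lay more than 2-fold below every other library for 82 genes in remaining cells and more than 2-fold above for 62. This held in all 3 classes for 40 and 28 genes. For such genes, the library pair and the time point cannot be told apart. No member was among them in remaining cells or tenocytes, and Mmp19 was among the higher genes in mural cells.

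**Figure D1:**
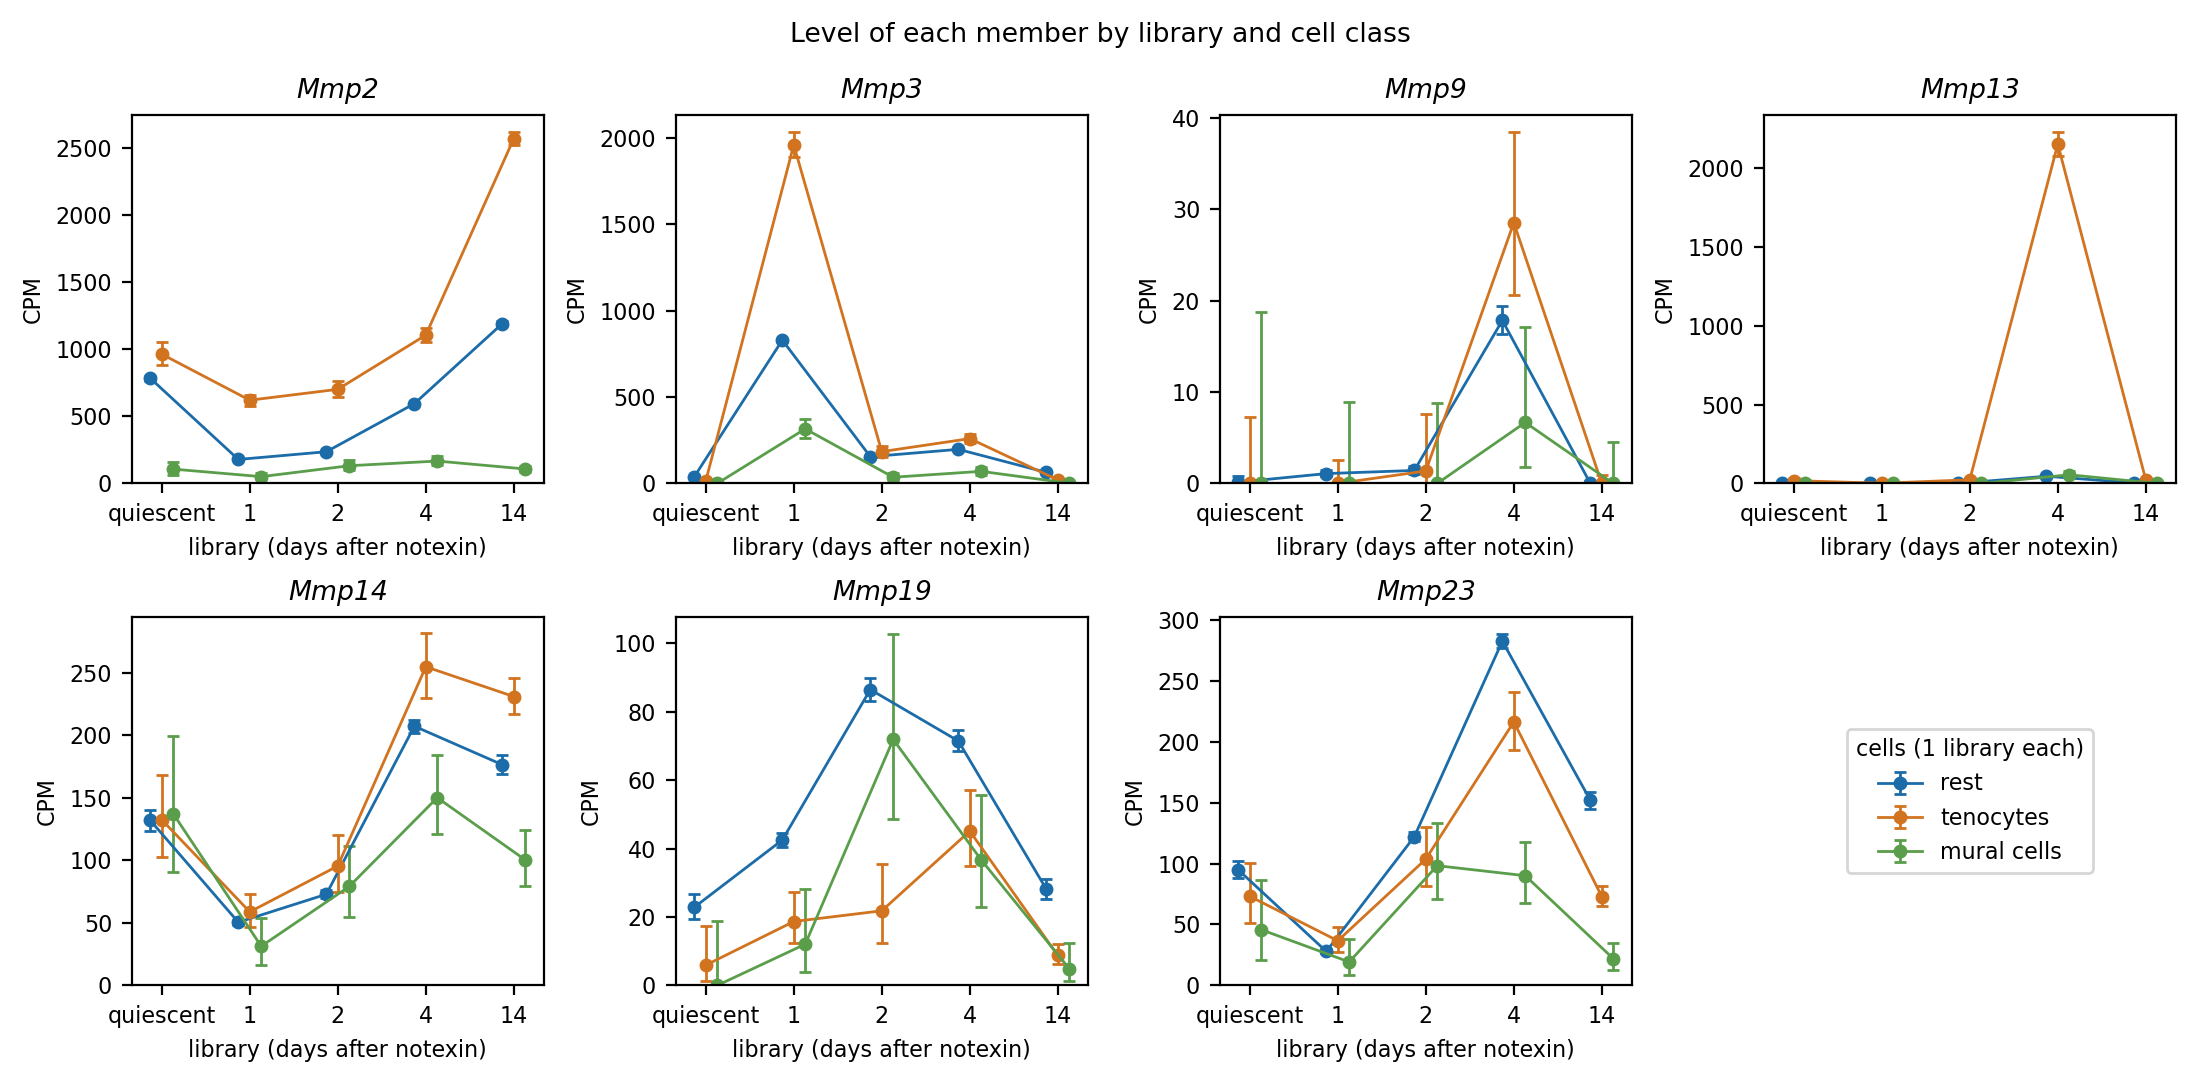
Level of each member (CPM, linear axis from 0) in the 5 libraries, for remaining cells (rest), tenocytes and mural cells; bars are 95% Poisson intervals and each point is 1 library. Mmp3 peaked at day 1, Mmp9 and Mmp13 at day 4, and Mmp2 at day 14 in remaining cells and tenocytes.

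The day 1 comparison asked what the cells expressed soon after injury. In remaining cells Mmp3 rose 21.3-fold (18.9 to 24.0), while Mmp2, Mmp14 and Mmp23 fell. Thus 4 of 7 members were called, 1 higher and 3 lower, and 5 of the 7 reached 20 CPM. Of 6045 genes at 20 CPM, 39.8% were called, 15.5% higher and 24.3% lower. With TMM or DESeq2 scaling factors the split was 2 higher and 2 lower, because Mmp14 was no longer called and Mmp19 was. Those factors shifted the log2 CPM ratio of every gene upward by 0.55 and 0.58 on day 1, before the 1 CPM is added. The shifts were 0.25 and 0.30, 0.13 and 0.15, and 0.02 and 0.01 on days 2, 4 and 14. At day 2 against quiescent Mmp3 and Mmp19 were called higher and Mmp2 lower, 3 of 7, where 28.7% of genes were called (11.3% higher and 17.4% lower). At day 4 Mmp3, Mmp13, Mmp19 and Mmp23 were called higher and none lower, where 16.3% of genes were called (6.34% higher and 9.92% lower). At day 14 none was called, where 1.68% of genes were (1.04% higher and 0.643% lower). The median log2 ratio over the members at 5 CPM or more was -1.37, 0.36, 1.60 and 0.60 on days 1, 2, 4 and 14. These medians cover 5, 5, 7 and 5 members. Over all genes at 5 CPM or more they were -0.34, -0.19, -0.07 and -0.00. Mmp9 and Mmp13 entered at day 4 only because they were high there. The day 4 median is thus partly set by the filter and covers another set of members.

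**Figure D2:**
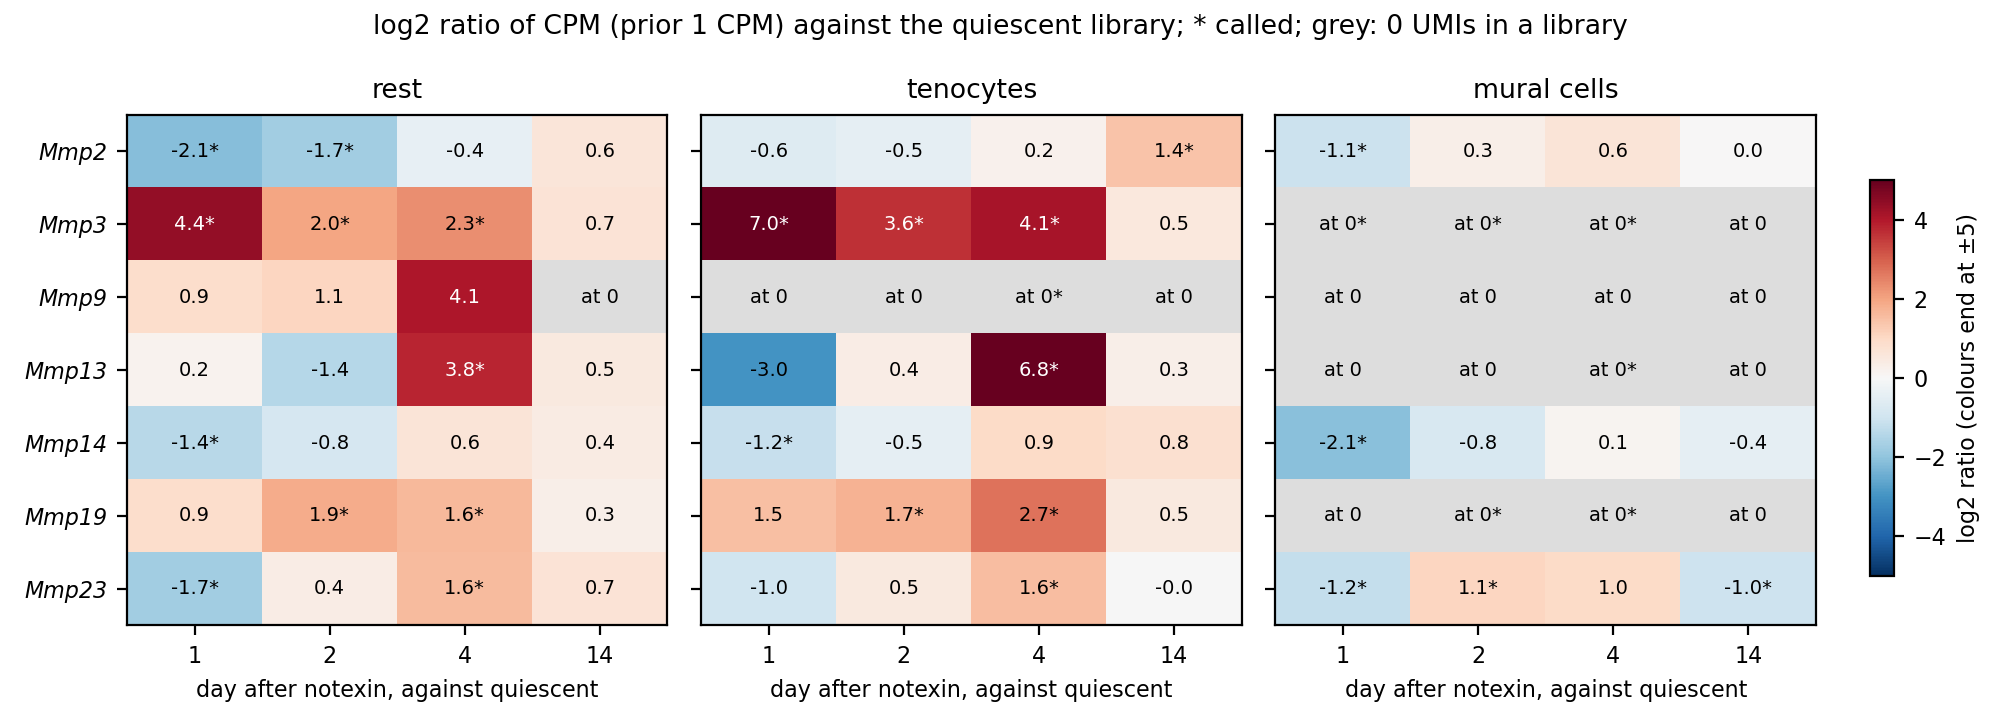
log2 ratio of CPM (with 1 CPM added) of each member against the quiescent library, by day and class; an asterisk marks a call and grey marks a gene with 0 UMIs in either library. The Mmp3 row is positive in remaining cells and tenocytes at every day, and outside it the highest value is that of Mmp13 in tenocytes at day 4.

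Mmp2, gelatinase A, was the member found in most remaining cells. Its level there was 783 CPM before injury and 179, 236, 594 and 1190.0 CPM on days 1, 2, 4 and 14. All neighbours in this order differed beyond counting error, with day 14 highest and day 1 lowest. Against quiescent it fell 4.38-fold (4.23 to 4.54) at day 1 and was 3.32-fold (3.203 to 3.432) lower at day 2. The day 14 level was 1.52-fold (1.47 to 1.57) above quiescent, short of a call, and 2.00-fold (1.96 to 2.05) above day 4. In tenocytes Mmp2 was at 962 CPM (quiescent), 620 (day 1), 701 (day 2), 1104 (day 4) and 2567 (day 14). It was thus 2.67-fold (2.44 to 2.93) higher at day 14 than in quiescent tenocytes, and its day 1 level was 1.55-fold (1.39 to 1.74) below. In mural cells it ranged from 50.6 CPM at day 1 to 167 at day 4, with counts of 21 to 100 UMIs.

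The share of cells with an Mmp2 UMI was read after each cell was thinned to 2500 UMIs, since deeper cells show more genes. It was 79.2% of remaining cells before injury and 34.4%, 45.9%, 71.6% and 86.6% on days 1, 2, 4 and 14. The unthinned shares were 82.9%, 66.1%, 84.0%, 91.5% and 88.2%. Thinning left out 390 of the quiescent, 65 of the day 1, 0 of the day 2, 63 of the day 4 and 398 of the day 14 remaining cells. Thinned shares in tenocytes ran from 71.3% at day 1 to 97.3% at day 14, and in mural cells from 5.95% at day 1 to 30.8% in the quiescent library, where only 13 mural cells were deep enough. Free RNA was not removed, and no class in these libraries is known to lack the members, so no share here marks a background level.

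Mmp9, gelatinase B, was near absent except at day 4. In remaining cells it had 1 UMI before injury and 46, 45, 536 and 0 UMIs on days 1, 2, 4 and 14. As levels these were 0.137, 1.08, 1.42, 17.8 and 0 CPM, the last allowing up to 0.241 CPM by a floor of 3 counts. The day 4 level was 130.3-fold (23.3 to 5157) above the single quiescent UMI and at least 74.0-fold above day 14, but under the 20 CPM a call needs. In tenocytes Mmp9 was at 28.5 CPM at day 4 (43 UMIs in 14 of 182 cells) with 0 UMIs before injury and on days 1 and 14. The bound was at least 4.81-fold against the quiescent floor and gave a call. The bound was 2.80-fold without the richest cell and 2.58-fold with equal weight for every cell, and with a class limit of 10 UMIs it was 1.67-fold. None of these was a call, since the first 2 left the day 4 level under 20 CPM. A limit of 3 UMIs gave 14.5-fold and a call. The quiescent library held 1 Mmp9 UMI over all classes, so the quiescent side of that ratio is 1 UMI or the floor. Mural cells had 4 Mmp9 UMIs at day 4 and 0 elsewhere. After thinning to 2500 UMIs, 2.59% of remaining cells held an Mmp9 UMI at day 4, against 0 in the quiescent and day 14 libraries, and 6.88% did so unthinned.

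Mmp3, stromelysin 1, which cleaves many matrix proteins and can activate other MMP proenzymes, peaked at day 1. Its level in remaining cells was 39.0 CPM before injury and 829, 155, 197 and 63.8 CPM on days 1, 2, 4 and 14. From day 1 to day 2 it fell 5.36-fold (5.20 to 5.52), and day 4 was 1.27-fold (1.23 to 1.32) above day 2. Day 14 was 1.64-fold (1.43 to 1.88) above quiescent, under a 2-fold difference. Tenocytes had 13.8 CPM before injury (7 UMIs in 3 cells) and 1958, 184, 259 and 20.4 CPM on days 1, 2, 4 and 14. Their day 1 level was 141.5-fold (68.6 to 352.4) above quiescent. Without the richest cell of each library it was 441.7-fold (122.1 to 3649) above 2 quiescent UMIs, and the day 2 and day 4 ratios of 13.3 and 18.7 became 28.28 (7.584 to 237.5) and 52.18 (14.32 to 432.8). Mural cells had 0 UMIs before injury and 316, 35.9, 70.0 and 1.22 CPM afterwards in time order, on 131, 15, 42 and 1 UMIs. Of the 131 mural UMIs at day 1, 109 were in 1 cell.

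Mmp3 was found in a minority of cells even at its peak. After thinning to 2500 UMIs the share of remaining cells with a UMI was 4.04% (quiescent), 24.1% (day 1), 16.7% (day 2), 12.4% (day 4) and 7.75% (day 14). Unthinned shares were 6.53%, 34.2%, 31.1%, 19.2% and 10.9%. In tenocytes the thinned shares were 1.94%, 37.1%, 10.1%, 15% and 2.31%, and in mural cells 0, 8.33%, 7.14%, 5.66% and 0. At day 1 the positive remaining cells held a mean of 22.8 Mmp3 UMIs, against 2.30 before injury and 6.54 on day 2. The richest single cell at day 1 had 765 UMIs of Mmp3.

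Mmp13, collagenase 3, which cuts fibrillar collagens, was a day 4 gene. In remaining cells it was at 2.33 CPM before injury (17 UMIs, all in 1 cell) and 2.79 CPM on day 1 (119 UMIs in 2 cells). It was at 0.253 CPM on day 2, 45.7 CPM on day 4 (1373 UMIs in 154 cells) and 3.61 CPM on day 14 (45 UMIs, 41 of them in 1 cell). Day 4 was 19.6-fold (12.2 to 33.8) above quiescent. Leaving out the richest cell of each library removed all quiescent UMIs. The ratio, at least 85.7-fold, was then set against the floor of 3 counts and had to rise. Tenocytes had 17.8 CPM before injury (9 UMIs in 1 cell) and 1.38, 23.2, 2152 and 22.0 CPM on days 1, 2, 4 and 14. The day 4 level of 3245 UMIs was 121.0-fold (63.7 to 264.8) above quiescent. Without the richest cell no quiescent UMI was left here either, and the bound of at least 280.5-fold was against the floor. From day 4 to day 14 it fell 97.7-fold (79.5 to 121.4). In mural cells all 33 UMIs were at day 4, 29 of them in 1 cell of the 2 that had any.

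Tenocytes at day 4 had 47.1-fold (44.2 to 50.2) more Mmp13 than the remaining cells of the same library, and 31.3-fold with a tendon limit of 3 UMIs. The share of cells with a UMI, after thinning to 2500, was 17.8% of tenocytes, 2.08% of remaining cells and 1.89% of mural cells, and 20.9%, 4.04% and 1.75% unthinned. Median depth was 6921 UMIs in those tenocytes, 7072 in remaining cells and 4059 in mural cells. The tenocyte UMIs lay in few cells. Of 182 tenocytes, 27 had at least 5 Mmp13 UMIs, and these 27 held 99.4% of the 3245, with 737 in the richest.

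Mmp14, the membrane-type enzyme that activates the Mmp2 proenzyme, lay within 2-fold of remaining cells in tenocytes and mural cells of every library. Its level in remaining cells was 132 CPM (quiescent), 50.5 (day 1), 72.9 (day 2), 207 (day 4) and 176 (day 14). It was 2.61-fold (2.42 to 2.82) lower at day 1 than in quiescent cells, a ratio of 0.383 that became 0.560 with TMM and 0.571 with DESeq2 factors, which ends the call. It then rose 2.84-fold (2.71 to 2.98) from day 2 to day 4. Tenocytes were at 132, 58.8, 95.4, 255 and 231 CPM, and mural cells 137, 31.3, 79.1, 150.0 and 100.3 CPM. Mural values rest on 13 to 90 UMIs. After thinning to 2500 UMIs, 25.8%, 13.6%, 18.0%, 36.2% and 34.3% of remaining cells held an Mmp14 UMI in time order, against 35.8%, 34.9%, 55.3%, 64.4% and 52.1% unthinned.

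Mmp19 peaked at day 2 in remaining cells, at 22.8 CPM before injury and 42.5, 86.5, 71.4 and 28.1 CPM on days 1, 2, 4 and 14. It was 3.78-fold (3.24 to 4.45) above quiescent at day 2 and 3.13-fold (2.67 to 3.68) above at day 4. At day 1 the ratio was 1.86 (1.59 to 2.19), under 2-fold except with TMM or DESeq2 factors. Tenocytes had less, at 5.93 CPM (3 UMIs), 18.7, 21.8, 45.1 and 8.76 in the same order. Mural cells had 0 UMIs in the quiescent library, then 5, 30, 22 and 4, of which 16 of the 22 at day 4 were in 1 cell. Thinned to 2500 UMIs, 5.83%, 9.06%, 16.8%, 13.8% and 6.27% of remaining cells held a UMI, against 8.21%, 25.9%, 51.7%, 33.8% and 12.3% unthinned.

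Mmp23 fell at day 1 and was highest at day 4. Its level in remaining cells was 94.8 CPM (quiescent), 27.9 (day 1), 122 (day 2), 282 (day 4) and 152 (day 14). It fell 3.40-fold (3.09 to 3.74) by day 1, rose 4.38-fold (4.10 to 4.67) from day 1 to day 2 and was 2.98-fold (2.76 to 3.22) above quiescent at day 4. Tenocytes followed with 73.1, 36.7, 104, 216 and 72.9 CPM, their day 14 and quiescent levels differing by less than counting error. In mural cells the levels were 45.8, 19.3, 98.2, 90.0 and 22.0 CPM on 8 to 54 UMIs. Thinned shares of remaining cells were 17.4%, 6.44%, 26.3%, 44.1% and 27.4%, beside 24.6%, 19.0%, 64.2%, 72.4% and 41.5% unthinned.

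Between consecutive libraries, remaining cells had 3 members called from day 1 to day 2 (17.7% of genes called, 9.68% higher), with Mmp19 and Mmp23 higher and Mmp3 lower. From day 2 to day 4 there were 4 (10.7% of genes called, 6.93% higher and 3.77% lower), all higher, namely Mmp2, Mmp13, Mmp14 and Mmp23. From day 4 to day 14 there were 4 (13.4% of genes called, 8.01% higher), with Mmp2 higher and Mmp3, Mmp13 and Mmp19 lower. Mmp13 fell 12.6-fold (9.39 to 17.4) in that step and Mmp19 2.54-fold (2.27 to 2.85). The Mmp19 call at day 2 (2.03-fold, 1.92 to 2.16) and the Mmp2 call at day 14 (2.00-fold, 1.96 to 2.05) lay close to the 2-fold limit. Consecutive comparisons were not recomputed with other scaling factors, cell filters or class limits in any class.

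Tenocytes had 2 members called at day 1 against quiescent (34.8% of genes called), Mmp3 higher and Mmp14 lower. At day 2 there were also 2 (28.1% of genes), Mmp3 and Mmp19, both higher. At day 4 there were 5 (25% of genes, 11.4% higher), all higher: Mmp3, Mmp9, Mmp13, Mmp19 and Mmp23. At day 14 Mmp2 alone was called (8.91% of genes, 5.57% higher), and it was higher. Between consecutive libraries, tenocytes had 5 members higher on day 4 than on day 2, all but Mmp2 and Mmp3 (8.94% of genes called, 5.77% higher). On day 14 against day 4 Mmp2 was higher and 5 members were lower, all but Mmp14 (20.9% of genes called, 8.32% lower). The day 1 Mmp14 call was lost with TMM and DESeq2 factors (0.528 and 0.529), and the Mmp19 calls rest on 3 quiescent UMIs. With a class limit of 10 UMIs, both Mmp19 calls were lost (2.52 at day 2 and 2.97 at day 4), and the day 2 call was also lost without the richest cell (4.83), every level then lying under 20 CPM. Mural cells had 4 members called at day 1 (39.9% of genes called), 3 at day 2 (44.6%), 3 at day 4 (34.2%) and 1 at day 14 (18.8%). Of these 11 mural calls only 2 held under every alternative, Mmp3 higher at day 1, by at least 20.7-fold against a quiescent count of 0, and Mmp14 lower at day 1, by 4.38-fold (2.18 to 9.25). The Mmp3 bound rests largely on 1 cell, which held 109 of the 131 mural UMIs at day 1. Without that cell it was at least 3.48-fold, and it was at least 7.71-fold as a mean over cells.

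Classes were also compared within a library, where time is the same for both. Tenocytes held 3.47-fold (3.23 to 3.72) more Mmp2 and 2.36-fold (2.27 to 2.45) more Mmp3 than remaining cells at day 1, and 2.28-fold (1.56 to 3.46) less Mmp19. In that comparison 11.5% of genes were called, 5.97% higher. At day 14, 5 members were called (17.8% of genes). Mmp2 was 2.16-fold (2.10 to 2.21) and Mmp13 6.09-fold (4.22 to 8.90) higher in tenocytes. Mmp3 was 3.14-fold (2.51 to 3.96), Mmp19 3.21-fold (2.28 to 4.63) and Mmp23 2.08-fold (1.85 to 2.36) lower. The day 14 Mmp13 call was lost when the richest cell was left out, both classes then lying under 20 CPM. It was also lost as a mean over cells and without cells that held at least 2 UMIs of other cell types. The ratio was then 12.7 and 2.06, again with both classes under 20 CPM. The Mmp23 call was lost with a class limit of 3 UMIs (0.523). At day 4 Mmp13 alone was called (6.66% of genes). At day 2 Mmp2 was 2.97-fold (2.71 to 3.25) higher, Mmp13 higher on 17 UMIs (14 in 1 cell, without which the call was lost, as it was with a class limit of 3 UMIs) and Mmp19 3.96-fold (2.44 to 6.94) lower (13.5% of genes called). In the quiescent library Mmp3 and Mmp19 were lower in tenocytes, on 7 and 3 UMIs (21.4% of genes called), and the Mmp3 ratio was 0.501 in deeper cells, which ends its call.

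No member was called higher in mural cells than in remaining cells in any library. Members called lower were 3 before injury, when 13.1% of genes were lower and 24.9% higher (38% called). On days 1, 2, 4 and 14 there were 3, 1, 3 and 4, beside 6.73%, 3.45%, 8.63% and 11.1% of genes lower and 18%, 8.38%, 15.4% and 18% higher (24.7%, 11.8%, 24.1% and 29.1% called). Mmp2 was 7.33-fold (4.79 to 11.9) lower in quiescent mural cells, 3.53-fold (2.31 to 5.71) at day 1, 3.56-fold (2.93 to 4.38) at day 4 and 11.1-fold (8.97 to 13.8) at day 14. Mmp23 was 6.90-fold (4.35 to 11.7) lower at day 14 and 3.14-fold (2.40 to 4.18) at day 4. Mmp3 was lower in mural cells in every library, by at least 2.56-fold in the quiescent one and by 52.2-fold (9.34 to 2064) on 1 UMI at day 14. At day 1 the mural ratio for Mmp3 was 0.381, and it was 0.659 in deeper cells and 0.740 without cells that held 2 UMIs of other cell types, which ends the call. The quiescent Mmp3 call was lost with at least 1000 genes and at most 5% mitochondrial UMIs per cell (0.939), and in deeper cells both levels were at or under the floor. The day 4 ratio for Mmp3 was 0.355, and 0.608 without cells that held UMIs of other types, which also ends the call. The quiescent Mmp23 call (0.483) was lost under the same stricter cell filter (0.633) and in deeper cells (0.942). The day 1 Mmp19 call (0.284) was lost in deeper cells (0.512) and without cells that held UMIs of other types (0.594).

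Among remaining cells the members differed in how their UMIs spread over cells. At day 4 the richest 1% of cells held 85.9% of the Mmp13 UMIs, 44.6% of Mmp9 and 43.7% of Mmp3. The same share of cells held 11.1% of Mmp19, 6.81% of Mmp14, 5.98% of Mmp23 and 4.24% of Mmp2. At day 1 the richest 1% held 35.4% of Mmp3, 14.7% of Mmp19, 14.1% of Mmp23, 8.63% of Mmp14 and 6.49% of Mmp2. Put another way, 90 of 4536 cells held 50% of all Mmp3 UMIs at day 1, and 6 of 3810 cells held 50% of Mmp13 at day 4. For Mmp2 at day 4 it took 869 cells. Depth, which these ranks do not correct for, was higher in rich cells, with a median of 11458 UMIs in the 46 remaining cells with at least 5 Mmp13 UMIs at day 4 and 6962 in cells with none.

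**Figure D3:**
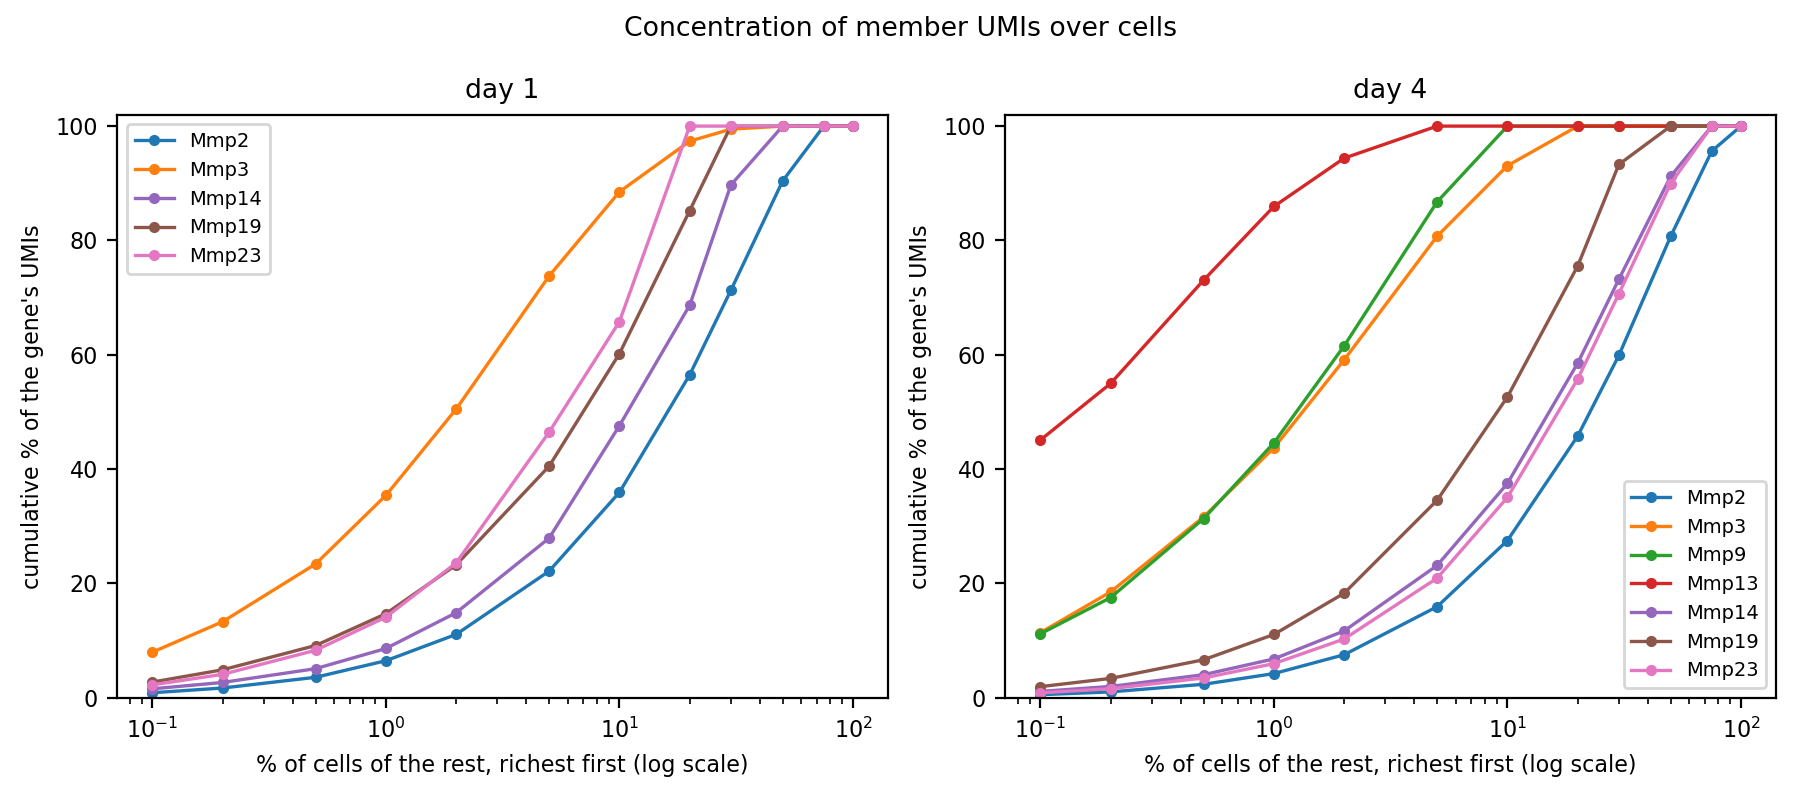
Cumulative percent of each member's UMIs against the percent of remaining cells, richest cells first (log axis), at day 1 and day 4; Mmp9 and Mmp13 at day 1, with UMIs in 23 and 2 cells, are left out. At 1% of cells, the Mmp13 line at day 4 is at 85.9% and the Mmp2 line at 4.24%.

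Remaining cells were divided by gene lists that mark progenitor states, counting a cell in when it had at least 5 UMIs of a list, with overlaps allowed. Mmp3 followed the cells with Hsd11b1, Cxcl14 and Smoc2. At day 1 these were 49.6% of remaining cells and held 87.2% of Mmp3 UMIs, at 1331 CPM against 232 in the others, 5.74-fold (5.56 to 5.92) higher where 5.78% of genes were called. Their median depth was 10326 against 7302 UMIs, and 330 cells lay within 1 UMI of the limit. At day 4 the ratio was 5.23-fold (4.92 to 5.56, 3.67% of genes called) and at day 2 2.50-fold (2.35 to 2.65, 4.62%), while the quiescent ratio was 1.10 (0.868 to 1.40). Cells with Stmn4, Pi16 and Efemp1 had 8.94-fold (8.51 to 9.40) less Mmp3 than the others at day 1 (5.18% of genes called) and those with Dmkn, Sbsn and Krtdap 10.2-fold (9.31 to 11.1) less (7.12%). At day 4 the 61 cells with Clu, Gdf10 and Cyp2f2 had 1732 against 175 CPM of Mmp3, 9.92-fold (9.18 to 10.7) higher (10.7% of genes called), and 43 cells lay within 1 UMI of that limit. Cells with Cxcl5, a neutrophil chemokine, had 2.12-fold (2.07 to 2.17) more Mmp3 at day 1 (5.78%), at a median depth of 12046 against 6410 UMIs.

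Mmp23 had the opposite layout. In the quiescent library it was 3.40-fold (2.86 to 4.06) higher in the Stmn4, Pi16 and Efemp1 cells (9.47% of genes called) and 3.32-fold (2.81 to 3.91) higher in the Dmkn, Sbsn and Krtdap cells (12.1%). It was 3.50-fold (2.94 to 4.19) lower in the Hsd11b1, Cxcl14 and Smoc2 cells (9.47%). The Stmn4 cells also had more Mmp23 at day 1 (3.39-fold, 3.02 to 3.81), day 2 (2.14-fold, 2.00 to 2.29) and day 14 (2.28-fold, 2.04 to 2.55), where 5.18%, 4.79% and 7.82% of genes were called. At day 4, when Mmp23 was highest, neither ratio was called.

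Mmp9 and Mmp13 at day 4 lay in the cells with Postn, Cthrc1 and Lrrc15, genes of activated matrix-producing fibroblasts. These were 60.7% of remaining cells, had 74.7% of all UMIs and held 98.5% of the Mmp9 and 96.7% of the Mmp13 UMIs. Their levels were 22.4-fold (11.3 to 52.1) higher for Mmp9, on 8 UMIs outside, and 10.0-fold (7.43 to 13.8) higher for Mmp13, where 10.4% of genes were called. Mmp19 was also higher there, at 83.4 against 36.1 CPM. Median depth was 8932 against 4699 UMIs. Mmp9 was 2.77-fold (2.30 to 3.34) higher in cells with the interferon genes Isg15, Ifit1, Ifit3 and Irf7 (4.76% of genes called) and 2.04-fold (1.64 to 2.52) higher in cells with mitotic genes such as Top2a and Mki67 (12.4%). Mmp2 was lower in those mitotic cells, by 3.26-fold (3.09 to 3.45) at day 2 (11.5%) and 2.17-fold (2.04 to 2.32) at day 4. It was also lower in Cxcl5 cells, by 2.13-fold (2.03 to 2.23) at day 1 and 3.25-fold (3.02 to 3.51) at day 2 (7.49%). Mmp14 was called in no subset of any library.

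**Figure D4:**
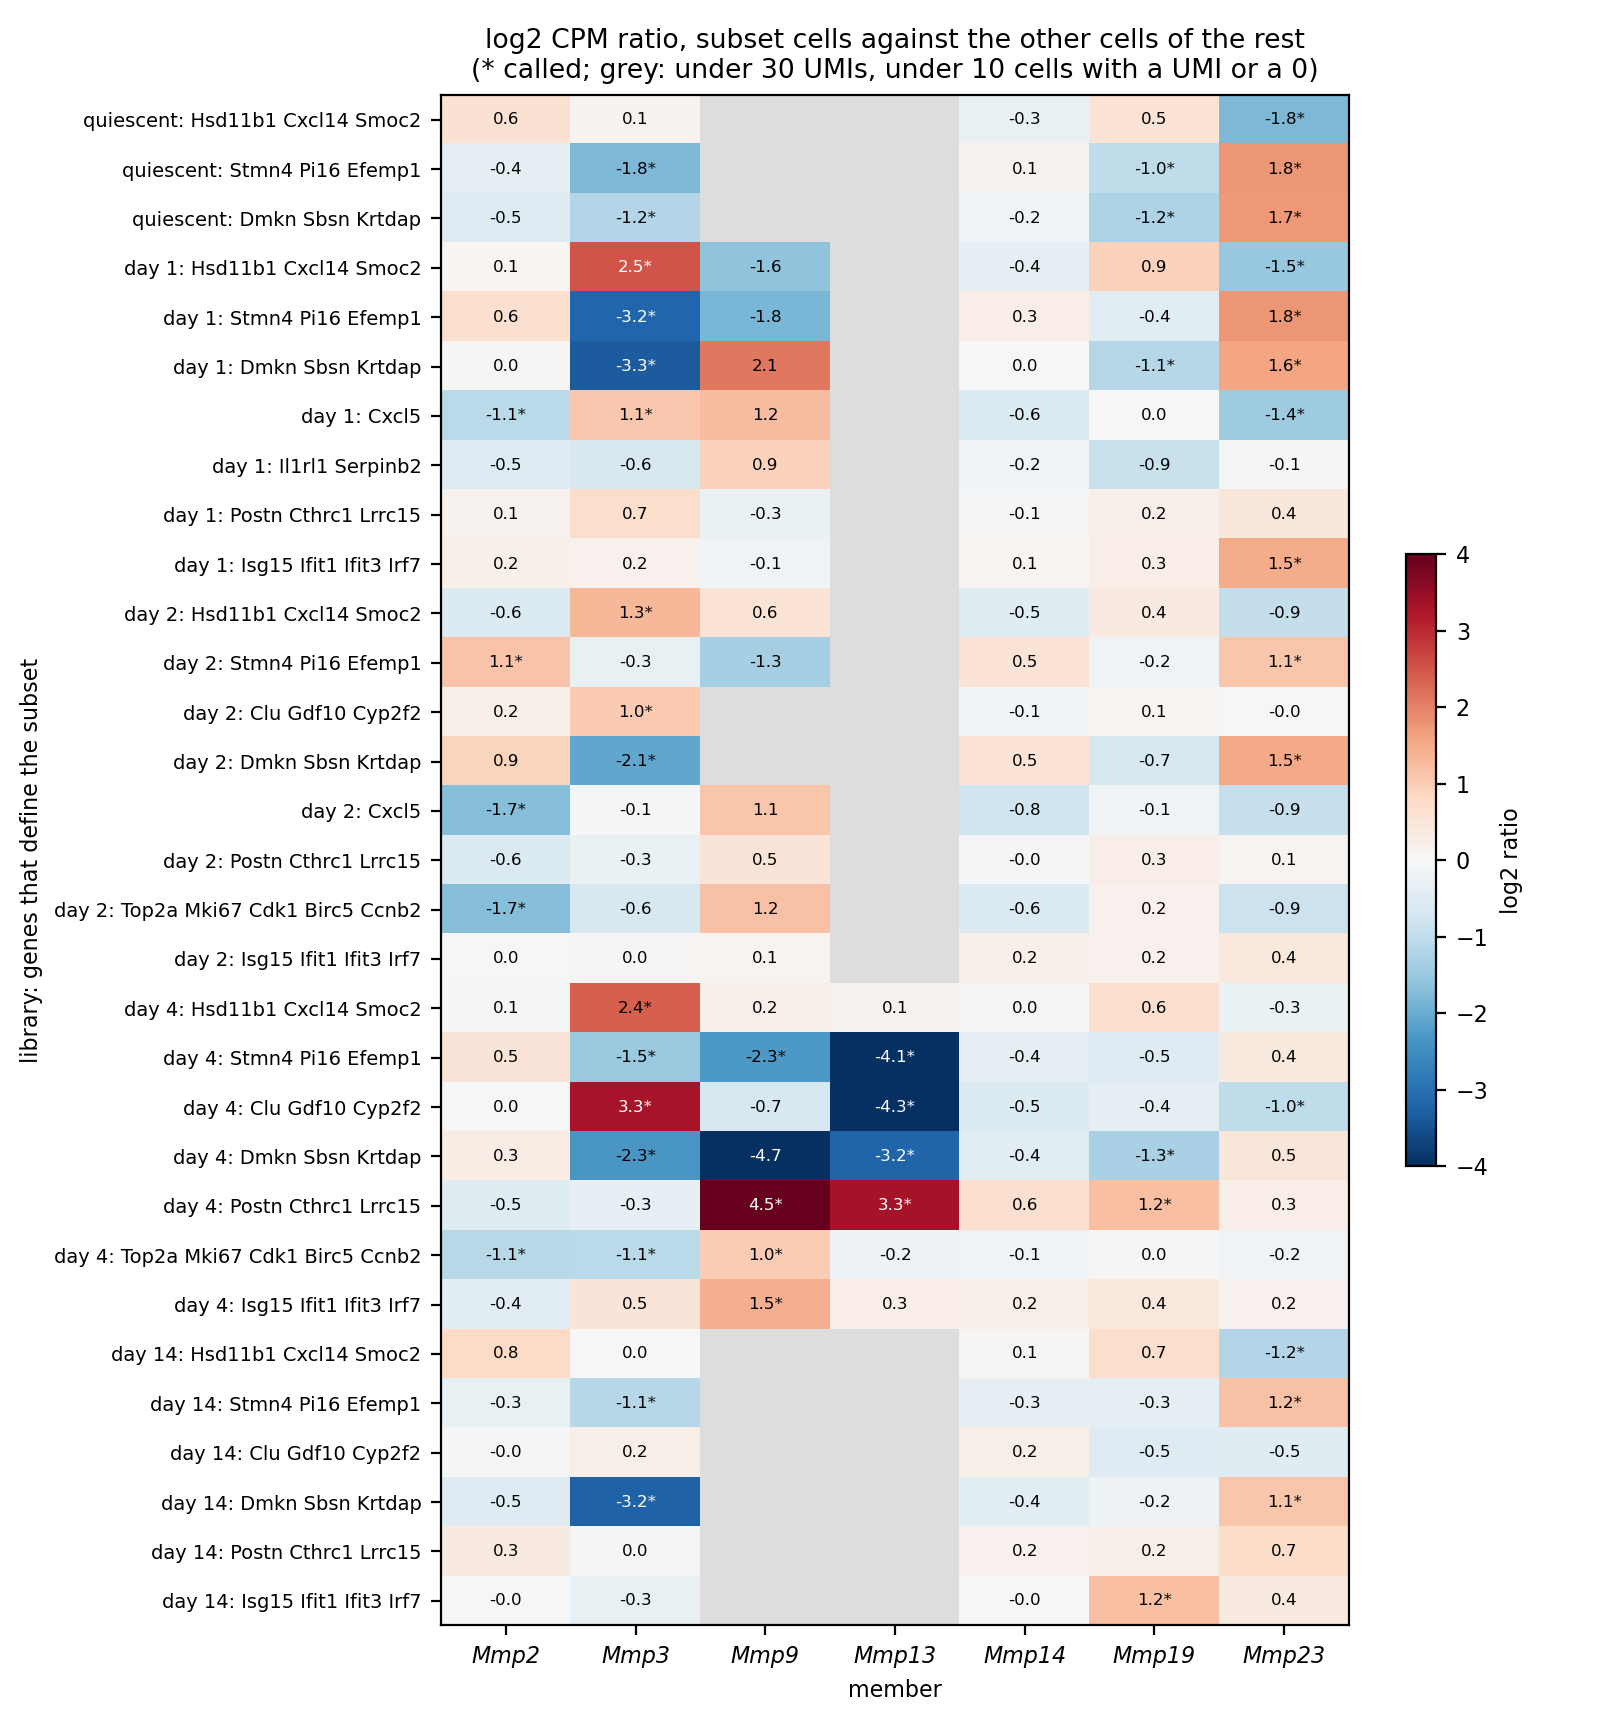
log2 ratio of CPM in each subset of remaining cells against the other remaining cells of its library (rows, named by library and the genes that define the subset) for each member (columns); an asterisk marks a call, and grey cells had too few UMIs or positive cells. Mmp3 is positive and Mmp23 negative in the Hsd11b1, Cxcl14 and Smoc2 rows at day 1, and Mmp9 and Mmp13 are positive in the Postn, Cthrc1 and Lrrc15 row at day 4.

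Co-detection was read in remaining cells thinned to 2500 UMIs. At day 4 a Mmp13 UMI was found in 9.28% (4.33 to 16.9) of the 97 cells with Mmp9 and in 1.89% (1.47 to 2.39) of those without. Mmp14 was in 57.7% (46.0 to 68.8) of the 78 cells with Mmp13 and 35.7% (34.2 to 37.3) of those without, while Mmp2 was in fewer Mmp13 cells, 57.7% against 71.9%. Mmp2 was also in fewer Mmp9 cells, 52.6% (42.2 to 62.8) against 72.1% (70.6 to 73.5). At day 1 Mmp23 was in 4.08% (2.98 to 5.44) of cells with Mmp3 and 7.19% (6.35 to 8.12) of those without. Mmp2 was in 49.3% (43.4 to 55.2) of the 288 cells with Mmp23 at day 1 and in 33.4% (32.0 to 34.8) of those without. At least 1 member was detected in all but 11.99% of quiescent cells, and in all but 37.7%, 23.8%, 7.37% and 6.12% of cells on days 1, 2, 4 and 14.

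Most other Mmp genes were low. Of 16, Mmp11 alone reached 20 CPM in remaining cells, and it was 2.59-fold (2.22 to 3.03) above quiescent at day 4, at 63.7 against 24.6 CPM. Its highest level was 126.7 CPM in mural cells at day 4 (76 UMIs). In the same cells Mmp2 (167 CPM) and Mmp14 (150.0) were above it. Mmp23 (90.0 CPM), Mmp3 (70.0), Mmp13 (55.02), Mmp19 (36.7) and Mmp9 (6.67) were below it. Mmp15 reached 30.5 CPM in quiescent mural cells, on 6 UMIs. Mmp16 was highest in tenocytes at day 14, at 48.1 CPM, and Mmp27 in remaining cells at day 14, at 13.9 CPM. Mmp1b, Mmp7, Mmp20 and Mmp21 had 0 UMIs in all 15 sums of class and library. The neutrophil collagenase gene Mmp8 had 6 UMIs in all and the macrophage elastase gene Mmp12 had 11.

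Among the inhibitors, Timp1 was higher and Timp2, Timp3 and Reck were lower on days 1, 2 and 4 than before injury. Of 6 inhibitor genes, 4 reached 20 CPM. Of these, 1 was called higher and 3 lower at each of days 1, 2 and 4, and none at day 14. Over all genes the shares called were 39.8%, 28.7%, 16.3% and 1.68% on these days. The list's median log2 ratios were -2.46, -2.23, -1.26 and -0.25 over the 4 genes at 5 CPM. Timp1 was at 4711 against 41.2 CPM at day 1, 114.4-fold (102.2 to 128.5) higher, and still 22.5-fold (20.1 to 25.3) higher at day 4. Timp2, which bridges Mmp14 and the Mmp2 proenzyme, was 8.97-fold (8.61 to 9.35) lower at day 1 and 2.15-fold (2.08 to 2.22) lower at day 4. Timp3, which binds to matrix, was 7.50-fold (7.14 to 7.89) lower at day 2. Reck, a membrane-anchored inhibitor, was 6.13-fold (5.19 to 7.24) lower at day 1.

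Of 10 genes of proenzyme activation, 3 were called higher and 2 lower at day 1, when 15.5% of all genes were higher and 24.3% lower. Of the 10, 9 reached 20 CPM, and 5 were called, beside 39.8% of all genes at that level. The count is not read as a result about the list. Among the higher genes, Plaur, the urokinase receptor, was 5.84-fold (4.92 to 6.97) higher and Serpinb2 227.3-fold (62.9 to 1878) higher on 2 quiescent UMIs. The proprotein convertase gene Pcsk6 was 12.5-fold (11.4 to 13.6) lower at day 1 and lower at days 2 and 4 too. Plau, urokinase, was 2.12-fold (1.90 to 2.36) lower at day 2 and 2.56-fold (2.28 to 2.88) at day 4. Of 9 genes of surface partners and collagen uptake, 1 was higher and 5 lower at day 1, beside the same 15.5% and 24.3% of all genes. Cd44, a hyaluronan receptor that docks MMPs, was 3.99-fold (3.56 to 4.47) higher, and Fap, a surface protease of fibroblasts, 6.32-fold (5.87 to 6.81) lower. Ctsk, cathepsin K, another collagenase, was 2.30-fold (2.18 to 2.41) lower at day 1 and 2.28-fold (2.18 to 2.38) higher at day 4.

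Of 11 AP-1 and ETS regulators, 8 reached 20 CPM at day 1. Fosl1 alone was higher and 2 were lower (15.5% and 24.3% of all genes). Fosl1 was at 65.2 against 1.23 CPM, 53.0-fold (27.9 to 116.0). Jun was 3.92-fold (3.7996 to 4.052) and Jund 7.01-fold (6.53 to 7.52) lower at day 1. At days 2 and 4, 7 of the 11 reached 20 CPM on each day. There were 0 higher and 3 lower, beside 11.3% and 6.34% of all genes higher and 17.4% and 9.92% lower. Junb, one of these, was among the genes lower in both the day 2 and day 4 libraries. All 10 collagen genes were called lower at day 1, 6 at day 2 and 1 at day 4, when 2 were higher, against 24.3%, 17.4% and 9.92% of all genes lower on those days. Col1a1 went from 2289 CPM before injury to 487 on day 1 and 7366 on day 4, 3.22-fold (3.17 to 3.27) above quiescent. Collagen medians were -2.17, -1.14, 0.43 and -0.13 on the log2 scale in time order.

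Genes whose levels were most like each member's were found over the 15 sums of class and library, as Pearson's r of log2(CPM + 5). The sums of a library share its depth and handling, so these values describe the libraries. Mmp2 was closest to Ssc5d, Ctsl and Serpinf1 (r = 0.94, 0.94 and 0.94). Mmp3 was closest to Pdpn, the podoplanin gene (0.95), Fgl2 (0.93) and Rpl24 (0.91). Mmp9 was closest to Hp, haptoglobin (0.88), Lgals3bp (0.86) and Bst2 (0.86), and Mmp13 to Bhlhe41 (0.81), C1qtnf3 (0.81) and Ddah1 (0.78). Mmp14 was closest to Nfic (0.89), Golgb1 (0.88) and Nfia (0.87), Mmp19 to Casp4 (0.94), Ada (0.94) and Cnih1 (0.92), and Mmp23 to Ctsh, cathepsin H (0.97), Col5a2 (0.96) and Arap1 (0.93). Hp, in remaining cells and tenocytes, and Ada, in remaining cells, are among the genes higher in both the day 2 and day 4 libraries, for which the library pair and the time point cannot be told apart. Among the members themselves r ran from -0.41 for Mmp3 and Mmp14 to 0.86 for Mmp9 and Mmp13.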

How the data were processed

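The authors deposited raw UMI counts of each gene in each barcode, 1 matrix per library, all whole numbers. Cell Ranger and mm10 come from the submitters' processing notes. Its version and its cell calling are not given here in any source. Per the labels' protocols, sorted cells were captured with 10x Chromium 3' v2 chemistry.

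Barcodes with at least 500 genes and at most 10% mitochondrial UMIs were kept, and raw counts were summed by class. Ratios have exact conditional binomial intervals, CPM Poisson intervals and shares Clopper-Pearson intervals, at 95%. A gene at 0 was put at 3 counts. Python 3.11.15 with scipy 1.17.1 made the sums. edgeR 4.0.16 and DESeq2 1.42.0 (R 4.3.3) gave alternative scaling factors only. Doublets were kept, and removal by Scrublet score was an alternative. The remaining alternatives changed the cell filter, class limit, depth, weighting and level filter.

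The members and lists were chosen with earlier results of these data known. Genes named were the members, at most 4 called genes per list and contrast, and the 3 genes most like each member among those of at least 50 CPM. Gene positions are from GENCODE M21 and promoters from RefSeq (GRCm38.p6). A symbol on more than 1 row was summed in the marker lists. Some genes that the rule would name are not reported here.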

Additional observations from a re-analysis of the deposited data

Results flagged for a closer look

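Mmp2 moved in opposite directions in 2 classes at day 4 against quiescent. In tenocytes the ratio was 1.15 (1.04 to 1.27), at 1104 against 962 CPM, and in remaining cells it was 0.758 (0.736 to 0.781), at 594 against 783 CPM. Neither ratio reached 2-fold, and the difference was not tested, since each class had 1 library per group.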

How the results depend on the processing

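No paired analysis was possible because each group was 1 library, and for the same reason no replicate could be left out. The number of members called in remaining cells at day 2 was 3, and 5 (3 higher and 2 lower) with no filter on level. The counts at days 1, 4 and 14 stayed within 1.5 times under every alternative. Of 11 called ratios against quiescent in remaining cells, 10 were called under every alternative for ratios, the exception being Mmp14 at day 1 (0.560 with TMM and 0.571 with DESeq2 factors). In tenocytes 6 of 10 were, and in mural cells 2 of 11. No called ratio that was recomputed changed direction, and ratios between consecutive libraries or between subsets were not recomputed. For 8 combinations of mural ratio and alternative both levels were at or under the floor and no value was given. Leaving out the richest cell, and the alternatives for comparisons between classes, were added after the data were seen. Depth limits the mural values and the Mmp9, Mmp13 and Mmp19 values of tenocytes most, where a library can hold under 10 UMIs of a gene.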

Other observations

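Cells rich in a member were also described by the genes that set them apart, with limits chosen after the values were seen, so these are descriptions only. The 27 tenocytes with at least 5 Mmp13 UMIs at day 4 had 360.3 CPM of Srgn, the serglycin gene, against 10.2 in the 144 tenocytes with none. They also had more Gadd45a (274.0 against 19.6 CPM), Mmp11 (370.4 against 52.1) and Lgals3, galectin 3 (1086 against 213). Their immune marker list was at 15.2 CPM against 17.9, and median depth was 6635 against 6754 UMIs.

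The 98 remaining cells with at least 2 Mmp9 UMIs at day 4 had 13335 CPM of Spp1, osteopontin, against 1275 in cells with none. Ccl5 (199 against 13.7 CPM), Ctsc, cathepsin C (877 against 159), Cxcl9 (359 against 86.1) and Timp1 (2455 against 798) were higher there as well. Ccl5 was found in only 10.2% of the 98 cells, against 0.817% of cells with none. Immune markers were at 11.5 CPM against 14.8, and median depth was 11667 against 6799 UMIs. The 46 remaining cells with at least 5 Mmp13 UMIs at day 4 had 28483 CPM of Spp1 against 1527, and Mmp9 at 113 against 15.2 CPM. Their immune markers were higher, at 21.9 against 14.5 CPM. The progenitor list was lower in both groups, at 19271 against 38417 CPM in the Mmp9 cells and 18983 against 37429 in the Mmp13 cells. The mural list (74.6 against 27.4 and 76.5 against 30.4 CPM) and the myogenic list (97.5 against 36.2 and 67.4 against 38.7) were higher in both.

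The 369 remaining cells with at least 20 Mmp3 UMIs at day 1 held 84.6% of 35391. They had more Cpxm1 (362.6 against 93.7 CPM), Fbln7 (112 against 23.0), Cthrc1 (219 against 79.8) and Fgl2 (505 against 226.5). In the quiescent library 14 cells with at least 5 Mmp3 UMIs held 42.5% of 285, and they had Ccl8 at 233.7 against 23.3 CPM, Gdf10 at 202.5 against 34.2 CPM and Il6 at 264.8 against 37.6 CPM. These levels rest on few cells: Ccl8 was found in 28.6% of the 14, Gdf10 in 57.1% and Il6 in 14.3%.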
